A study of Mus musculus with 18 samples.

Results

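The genes described here are imprinted genes that act on growth: H19, Igf2, Dlk1, Meg3, Mest, Peg3, Plagl1, Cdkn1c, Grb10 and Ndn. They were chosen by name, with earlier results of these data known. Counts of members called, given below beside the share of all genes, are therefore a description and no test of the set. Of these 10 genes, 8 were among the 35727 gene IDs of the count table and 8 passed the filter on low counts, Dlk1 through 1 group alone (described with that gene), while H19 and Meg3 were not analysed here. They were followed in 18 bulk RNA-seq libraries of cultured mouse cells taken on day 7 in the endothelial medium EGM2. The 6 groups of 3 libraries were iECs of lung, iECs of heart, native endothelial cells (ECs) of lung, native ECs of heart, control fibroblasts of lung and control fibroblasts of heart. The abbreviation iEC is not explained by the labels. In this field it usually means a cell driven towards an endothelial state, and the titles of these libraries carry the unexplained term SEG instead. The labels used here name no strain, age, sex, transgene or inducing agent. The design text asks how iECs acquire endothelial traits particular to their organ.

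An imprinted gene is read mainly from the copy inherited from the mother or from the copy inherited from the father, because DNA methylation laid down in the egg or sperm makes the copies differ. Igf2, Dlk1, Mest, Peg3, Plagl1 and Ndn are known as paternally expressed genes, while Cdkn1c and, outside the brain, Grb10 are known as maternally expressed genes. In mouse most of these genes are active in the fetus and decline after birth, with paternally expressed genes tending to promote growth and maternally expressed ones tending to restrain it. The values below are summed over both alleles and do not tell which copy was read.

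Values are CPM, which are estimated counts relative to the library total after adjustment by TMM factors of 0.889 to 1.11. The libraries held 17747632 to 23775372 estimated counts each. A gene was called changed at an adjusted p under 0.05 in edgeR's quasi-likelihood test with Benjamini-Hochberg adjustment over the 14864 genes tested, and log2 changes are given ± SE. Nothing in the labels says that the libraries of a group came from separate cultures or animals, so the p-values measure only the spread between these libraries, which may be technical. In bulk RNA, fewer cells of a type and less RNA per cell cannot be told apart.

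Marker genes were read before the members. The 6 endothelial markers (Pecam1, Cdh5, Tie1, Kdr, Emcn, Erg) summed to 1949 to 2279 CPM in lung iECs, 2103 to 2262 CPM in heart iECs, 2346 to 2433 CPM in lung ECs and 1259 to 1414 CPM in heart ECs, against 11.7 to 18.2 CPM in lung fibroblasts and 180.3 to 204 CPM in heart fibroblasts. All 6 were called higher in lung iECs than in lung fibroblasts, while against lung ECs 2 were called higher and 4 lower. Pecam1, a junction protein of endothelial cells, stood at only 7.12 ± 0.915 CPM in lung iECs. It had 562 ± 19.2 CPM in lung ECs and 1.91 ± 0.337 CPM in lung fibroblasts. The 6 fibroblast markers (Col1a1, Col1a2, Col3a1, Pdgfra, Dcn, Lum) were present in every group, at 10990 to 14750 CPM in lung iECs, 17390 to 18920 CPM in heart iECs, 5490 to 6706 CPM in lung ECs, 19730 to 20710 CPM in heart ECs, 34750 to 42500 CPM in lung fibroblasts and 27960 to 29370 CPM in heart fibroblasts. The 5 macrophage markers (Ptprc, Adgre1, Cd68, Csf1r, Lyz2) reached 2043 to 3408 CPM in lung iECs and 6801 to 8914 CPM in lung ECs, against 913 to 1196 CPM in lung fibroblasts, while the heart groups held at most 323 CPM. Lung EC replicate 3 was the highest of its group for 8 of 8 members, with the group's lowest macrophage sum (6801 CPM) and highest fibroblast and mesothelial sums (6706 and 246.5 CPM). Lung iEC replicate 3 was the lowest of its group for 7 of 8 members, with the group's highest macrophage sum (3408 CPM). Lung iEC replicate 2, heart iEC replicate 3 and heart EC replicate 2 were each the highest of their group for 6 of 8 members. These ranks were not counted over all genes, so they may not be particular to the members. The part of the macrophage, fibroblast and mesothelial markers' cells in the members' values was not tested. Called values that move by over 1.5 times or lose their call without 1 library are given with and without it.

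Promoter sequences were read for the members because imprints are carried by methylated CpG dinucleotides. RefSeq promoter windows on GRCm38.p6, which run from 250 bases before to 50 bases after a start site, matched 7 of the 8 genes analysed. The median window in the whole table of 32851 promoters held 7 CpG. The 4 windows printed here were picked as examples after the values were seen, from genes called between iECs and another cell type, and no other window of the same gene holds more CpG. They are written 5′ to 3′ on the gene's strand with every CpG in capitals. They lie at chr6:30737800-30738099 (plus strand, Mest, a start in the middle of the annotated gene), chr7:6730370-6730669 (minus strand, Peg3), chr10:13090582-13090881 (plus strand, Plagl1) and chr11:12037371-12037670 (minus strand, Grb10).
Mest: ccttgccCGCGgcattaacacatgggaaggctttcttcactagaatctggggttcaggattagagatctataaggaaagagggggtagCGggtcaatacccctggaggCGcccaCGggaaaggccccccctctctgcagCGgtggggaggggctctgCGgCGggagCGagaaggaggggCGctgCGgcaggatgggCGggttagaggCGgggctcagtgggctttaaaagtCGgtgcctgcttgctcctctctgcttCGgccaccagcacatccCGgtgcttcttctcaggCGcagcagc
Peg3: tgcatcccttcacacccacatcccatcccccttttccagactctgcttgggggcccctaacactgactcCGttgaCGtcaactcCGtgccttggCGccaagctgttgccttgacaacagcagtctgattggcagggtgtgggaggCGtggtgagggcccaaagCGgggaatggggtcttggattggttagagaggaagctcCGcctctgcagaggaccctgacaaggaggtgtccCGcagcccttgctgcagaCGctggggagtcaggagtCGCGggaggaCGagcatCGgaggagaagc
Plagl1: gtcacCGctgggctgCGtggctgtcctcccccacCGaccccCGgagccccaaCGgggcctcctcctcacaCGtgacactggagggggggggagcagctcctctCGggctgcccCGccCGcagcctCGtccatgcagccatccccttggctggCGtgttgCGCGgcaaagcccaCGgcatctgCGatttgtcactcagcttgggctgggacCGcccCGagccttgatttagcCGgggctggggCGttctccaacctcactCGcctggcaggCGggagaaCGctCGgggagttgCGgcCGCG
Grb10: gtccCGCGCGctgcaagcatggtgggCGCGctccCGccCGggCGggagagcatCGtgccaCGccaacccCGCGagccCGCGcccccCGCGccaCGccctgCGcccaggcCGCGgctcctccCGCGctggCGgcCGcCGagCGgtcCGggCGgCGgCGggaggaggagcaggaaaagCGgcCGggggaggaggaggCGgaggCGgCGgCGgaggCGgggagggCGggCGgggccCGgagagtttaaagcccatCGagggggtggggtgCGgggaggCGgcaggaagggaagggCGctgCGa

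The Grb10 window was the richest of these with 45 CpG, more than in 98.1% of all windows, and was followed by Plagl1 with 26, Mest with 17 and Peg3 with 13. The start of Dlk1, an upstream start of Mest and the other start of Grb10 held 8 or 9 CpG, a further Mest start whose window overlaps the printed one held 17, Ndn held 11, and the 4 Igf2 starts held 2, 14, 24 and 7. A search on both strands for GGGGCCCC, the core of the sequence bound by the PLAGL1 protein, found it in the Peg3 window, in its opening stretch, and in no other window of the genes analysed, while 1.08% of all windows hold it. The longer PLAGL1 consensus, which contains that core and occurs in 0.0152% of windows, and the ETS sequence CCGGAAGT, in 3.89% of windows, were in none of the members' windows.

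Igf2 encodes insulin-like growth factor 2, a fetal growth factor that signals through the receptor Igf1r and is cleared by Igf2r. It was lowest in heart iECs, and its means in the other 5 groups lay between 7.26 and 14.7 CPM. The gene (ENSMUSG00000048583) spans bases 142650766 to 142666816 of chromosome 7 (GRCm38, minus strand). It had 11.1, 12.1 and 8.88 CPM in lung iECs and 3.37, 2.09 and 3.58 CPM in heart iECs. The native cells had 13.7, 10.9 and 19.5 CPM in lung ECs and 12.4, 12.2 and 9.72 CPM in heart ECs. The fibroblasts had 9.97, 15.4 and 11.5 CPM in lung and 7.101, 5.002 and 9.68 CPM in heart. Every heart iEC library lay below every other library, and in the order of group means from lung EC down to heart fibroblast each neighbouring pair overlapped. Igf2 fell in heart iECs against heart fibroblasts (log2 change -1.26 ± 0.28, edgeR adjusted p = 0.00109) and against heart ECs (log2 change -1.92 ± 0.27, edgeR adjusted p = 1.66e-05). In lung iECs neither difference passed the test, at -0.20 ± 0.25 against lung fibroblasts (edgeR adjusted p = 0.531) and -0.46 ± 0.25 against lung ECs (edgeR adjusted p = 0.145).

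Organ differences in Igf2 were clearest among iECs, where lung stood above heart by a log2 change of 1.83 ± 0.27 (edgeR adjusted p = 4.09e-05). Lung fibroblasts were above heart fibroblasts by 0.77 ± 0.26 (edgeR adjusted p = 0.0207), a call lost without lung fibroblast replicate 2 (0.57, adjusted p = 0.102) or without heart fibroblast replicate 1 (0.75, adjusted p = 0.0586) or 2 (0.56, adjusted p = 0.106). Heart ECs were above heart fibroblasts by 0.66 ± 0.26 (edgeR adjusted p = 0.0446). That call ended without any filter on low counts (0.66, adjusted p = 0.0734) and when heart EC replicate 1 or 2, heart fibroblast replicate 1 or 2, heart iEC replicate 1, lung EC replicate 1, lung fibroblast replicate 3 or lung iEC replicate 1 was left out, with adjusted p of 0.053 to 0.192. The annotation holds a readthrough gene, Gm49394, that shares 3596 exon bases with Igf2, and it took at most 2.42% of the CPM of both in any library. Igf2 also shares 98 exon bases with the antisense gene Igf2os, and whether the counting used strand is not given in the sources used here.

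Grb10 encodes an adaptor that binds the insulin and IGF1 receptors and dampens their signal. It set lung iECs and lung fibroblasts apart from the other 4 groups, whose means lay between 158.5 and 172 CPM. The gene (ENSMUSG00000020176) lies on chromosome 11, 11930508 to 12038683, minus strand. Its values were 358, 392 and 272 CPM in lung iECs and 172, 186 and 159 CPM in heart iECs. They were 147, 142 and 187 CPM in lung ECs and 153, 167 and 156 CPM in heart ECs, and 333, 399 and 413 CPM in lung fibroblasts and 165, 171 and 160.3 CPM in heart fibroblasts. No library of lung iECs or lung fibroblasts overlapped with any library of the other 4 groups, and these 2 groups overlapped with each other. Grb10 was higher in lung iECs than in lung ECs (log2 change 1.10 ± 0.12, edgeR adjusted p = 9.48e-07) and lower in lung ECs than in lung fibroblasts (log2 change -1.27 ± 0.12, edgeR adjusted p = 8.61e-08). The differences within heart were 0.06 ± 0.12 for iECs against fibroblasts and 0.12 ± 0.12 for iECs against ECs, and neither passed the test (edgeR adjusted p = 0.722 and 0.462). Lung stood above heart in iECs (log2 change 0.98 ± 0.12, edgeR adjusted p = 4.60e-06) and in fibroblasts (log2 change 1.21 ± 0.12, edgeR adjusted p = 2.52e-07). Between lung and heart ECs the log2 difference was -0.0029 ± 0.12 (edgeR adjusted p = 0.989), and its sign turned under several alternatives.

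Plagl1 encodes a zinc-finger transcription factor, also called ZAC1, that in mouse was described as a regulator of other imprinted genes. It was highest in heart ECs, next in heart iECs, and low in the rest. The gene (ENSMUSG00000019817) lies on chromosome 10, 13060504 to 13131694, plus strand. It had 7.07, 7.73 and 6.13 CPM in lung iECs and 37.3, 34.1 and 38.7 CPM in heart iECs. In native cells it had 13.5, 11.1 and 19.8 CPM in lung ECs and 57.3, 74.2 and 57.8 CPM in heart ECs, and fibroblasts had 6.36, 10.4 and 11.8 CPM in lung and 6.53, 7.58 and 6.41 CPM in heart. Heart ECs, heart iECs and the other libraries formed 3 ranges that did not overlap. Plagl1 rose in heart iECs against heart fibroblasts by 5.35-fold (log2 change 2.42 ± 0.22, edgeR adjusted p = 7.40e-08) and remained below heart ECs (log2 change -0.78 ± 0.19, edgeR adjusted p = 0.00286), which exceeded heart fibroblasts by 9.20-fold (log2 change 3.20 ± 0.22, edgeR adjusted p = 5.83e-09). In lung iECs it was below lung ECs (log2 change -1.08 ± 0.21, edgeR adjusted p = 0.000576) and its difference from lung fibroblasts did not pass the test (log2 change -0.45 ± 0.22, edgeR adjusted p = 0.0982). Lung ECs were above lung fibroblasts (log2 change 0.63 ± 0.21, edgeR adjusted p = 0.0171) with overlapping libraries. That call ended without lung EC replicate 3 (0.35, adjusted p = 0.126), without lung fibroblast replicate 1 (0.41, adjusted p = 0.0813) and in a fit of these groups alone (0.62, adjusted p = 0.0942). Lung stood below heart in iECs (log2 change -2.39 ± 0.21, edgeR adjusted p = 1.47e-07) and in ECs (log2 change -2.09 ± 0.20, edgeR adjusted p = 2.31e-07), while the fibroblasts differed by 0.48 ± 0.22 (edgeR adjusted p = 0.0869). Beside the rise in heart iECs, 5 of 5 smooth muscle and pericyte markers (Acta2, Tagln, Myh11, Cnn1, Rgs5) rose, with summed levels of 1128 to 1312 CPM in heart iECs, against 209.5 to 240.6 CPM in heart fibroblasts. In lung iECs 5 of 5 also rose, to 3156 to 3839 CPM against 823.5 to 1138 CPM in lung fibroblasts, while Plagl1 was not called there. Beside the peak in heart ECs, the 4 mesothelial markers (Msln, Upk3b, Lrrn4, Wt1) summed to 1.63 to 1.73 CPM in heart iECs, against 286 to 414 CPM in heart ECs and 40.15 to 55.2 CPM in heart fibroblasts. In lung the mesothelial markers summed to 203.5 to 214.5 CPM in fibroblasts, where Plagl1 was low. Lung ECs held 158.4 to 246.5 CPM of them and lung iECs 11.3 to 15.5 CPM. The part of these markers' cells in the Plagl1 values was not tested.

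Cdkn1c encodes p57Kip2, an inhibitor of cyclin-dependent kinases that holds cells out of the cell cycle. It was highest in heart fibroblasts and lowest in lung ECs. The gene (ENSMUSG00000037664) lies on chromosome 7, 143458339 to 143461050, minus strand, 791.523 kb from Igf2. It had 21.4, 18.3 and 12.5 CPM in lung iECs and 31.1, 32.3 and 36.8 CPM in heart iECs. Lung ECs had 3.31, 3.26 and 9.92 CPM and heart ECs had 27.03, 38.8 and 38.7 CPM, and fibroblasts had 18.8, 17.97 and 15.9 CPM in lung and 58.6, 61.4 and 61.1 CPM in heart. All 3 heart fibroblast libraries lay above, and all 3 lung EC libraries below, those of every other group. Lung ECs were lower than lung fibroblasts (log2 change -1.66 ± 0.34, edgeR adjusted p = 0.000676) and than heart ECs (log2 change -2.65 ± 0.33, edgeR adjusted p = 1.33e-05), and lung iECs were higher than lung ECs (log2 change 1.65 ± 0.33, edgeR adjusted p = 0.00105). Without lung EC replicate 3, the highest library, these 3 log2 changes became -2.41, -3.40 and 2.40.

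Within heart, Cdkn1c was lower in iECs than in fibroblasts (log2 change -0.85 ± 0.29, edgeR adjusted p = 0.026) and lower in ECs than in fibroblasts (log2 change -0.79 ± 0.30, edgeR adjusted p = 0.0397). The iEC call ended with no filter on low counts (-0.86, adjusted p = 0.0525) and without any 1 of heart fibroblast replicates 1, 2 and 3 or heart iEC replicates 1 and 2 (log2 change -0.81 to -0.87, adjusted p = 0.0513 to 0.0777). The EC call ended with no filter (-0.80, adjusted p = 0.077) and without any 1 of the 3 heart EC or 3 heart fibroblast libraries, heart iEC replicate 1 or 2 or lung fibroblast replicate 2 (log2 change -0.64 to -0.88, adjusted p = 0.0504 to 0.145). Fibroblasts of lung were below those of heart (log2 change -1.78 ± 0.31, edgeR adjusted p = 0.000241). Lung iECs were below heart iECs (log2 change -0.94 ± 0.30, edgeR adjusted p = 0.0248), a call lost with no filter (-0.92, adjusted p = 0.0599) and without heart iEC replicate 2 or 3 or lung iEC replicate 2 or 3 (adjusted p = 0.0507 to 0.0969). The 15 cell cycle genes, read beside this inhibitor, summed to 101 to 114 CPM in heart fibroblasts and to 287 to 609 CPM in the other groups, and their part in the Cdkn1c values was not tested. The annotation places the antisense gene Gm44732 over 625 exon bases of Cdkn1c, and without a stated strand setting reads from the pair cannot be told apart.

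Dlk1 encodes a membrane protein with EGF-like repeats, related to Notch ligands, that keeps precursor cells such as preadipocytes undifferentiated. It was barely detected outside lung fibroblasts. The gene (ENSMUSG00000040856) lies on chromosome 12, 109452823 to 109463336, plus strand, next to Meg3. It had 4, 3 and 1 counts in lung iECs and 3, 2 and 6 counts in heart iECs. Lung ECs had 0, 2 and 8 counts and heart ECs had 4, 14 and 9 counts, and fibroblasts had 40, 24 and 38 counts in lung and 2, 1 and 1 counts in heart. Lung fibroblasts averaged 1.72 ± 0.571 CPM (SD, n = 3) and did not overlap with any other group, whose means of 0.0725 to 0.483 CPM overlapped from neighbour to neighbour. Dlk1 passed the filter on low counts through lung fibroblasts alone, since all 3 of these libraries and at most 2 of any other group reached its limit. A difference of lung fibroblasts from the other groups was thus set by the filter, and its size is given as a description with no test. The log2 change against lung fibroblasts was -3.74 ± 0.72 in lung iECs and -3.53 ± 0.70 in lung ECs, or -5.11 in lung ECs without lung EC replicate 3, and that of lung over heart fibroblasts was 4.44 ± 0.80. Heart ECs were above heart fibroblasts (log2 change 2.60 ± 0.88, edgeR adjusted p = 0.0219) on 27 against 4 counts over the group, and this call ended without heart EC replicate 2 (2.10, adjusted p = 0.0982) or heart fibroblast replicate 2 (2.42, adjusted p = 0.0722) or 3 (2.51, adjusted p = 0.0633). With so few counts an SE can understate the error, and intervals from counts cover counting error only.

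Mest encodes a protein of the alpha/beta hydrolase fold family known from mesoderm and growing fat tissue. It had the widest span of the 8 genes, as its highest group mean was 119 times its lowest. The gene (ENSMUSG00000051855) lies on chromosome 6, 30723547 to 30748465, plus strand. It had 38.7, 44.7 and 19.4 CPM in lung iECs and 13.1, 15.4 and 15.6 CPM in heart iECs. Lung ECs had 28.02, 15.6 and 53.2 CPM and heart ECs had 164, 184 and 172 CPM, and fibroblasts had 0.802, 2.11 and 1.44 CPM in lung and 13.3, 15.01 and 13.7 CPM in heart. Each heart EC library lay above, and each lung fibroblast library below, all libraries of the other groups. In lung, Mest rose 23.1-fold in iECs against fibroblasts (log2 change 4.53 ± 0.50, edgeR adjusted p = 4.74e-06), and lung ECs exceeded fibroblasts by a similar 21.8-fold (log2 change 4.44 ± 0.50, edgeR adjusted p = 4.25e-06). Lung iECs and lung ECs differed by 0.09 ± 0.37 (edgeR adjusted p = 0.871), with a spread over replicates of 19.4 to 44.7 CPM in lung iECs and 15.6 to 53.2 CPM in lung ECs. The smooth muscle and pericyte markers stood at 3156 to 3839 CPM in lung iECs and 1291 to 2014 CPM in lung ECs, against 823.5 to 1138 CPM in lung fibroblasts. Of these markers, 5 of 5 were higher in lung iECs and 4 of 5 in lung ECs than in lung fibroblasts. In heart iECs 5 of 5 were also higher than in heart fibroblasts, while Mest was not called there. The part of these markers' cells in the Mest values was not tested.

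In heart the pattern of Mest was different. Heart ECs exceeded heart fibroblasts by 12.4-fold (log2 change 3.63 ± 0.40, edgeR adjusted p = 7.29e-06), and heart iECs averaged 14.7 ± 1.403 CPM, against 173 ± 9.899 CPM in heart ECs and 14.02 ± 0.881 CPM in heart fibroblasts (SD, n = 3 each). Heart iECs were 11.8-fold lower than heart ECs (log2 change -3.56 ± 0.40, edgeR adjusted p = 6.00e-06), and their difference from heart fibroblasts was 0.06 ± 0.39 (edgeR adjusted p = 0.908). The mesothelial markers followed the same order in part, at 1.63 to 1.73 CPM in heart iECs, against 286 to 414 CPM in heart ECs and 40.15 to 55.2 CPM in heart fibroblasts. All 4 of them were called higher in heart ECs than in heart fibroblasts. All 4 were called lower when heart iECs were set against heart ECs. In lung these markers summed to 203.5 to 214.5 CPM in fibroblasts, where Mest was lowest. Lung ECs held 158.4 to 246.5 CPM of them and lung iECs 11.3 to 15.5 CPM. The 4 cardiomyocyte markers (Myh6, Tnnt2, Actc1, Nppa) summed to 8.14 to 8.875 CPM in heart iECs, with Actc1 at 0 counts, against 61.9 to 73.96 CPM in heart ECs and 84.2 to 94.97 CPM in heart fibroblasts. The part of either set in the Mest values was not tested. Lung fibroblasts were below heart fibroblasts (log2 change -3.24 ± 0.52, edgeR adjusted p = 0.000152) and lung ECs below heart ECs (log2 change -2.42 ± 0.37, edgeR adjusted p = 0.00012). Lung iECs were above heart iECs (log2 change 1.23 ± 0.38, edgeR adjusted p = 0.021), a call lost without heart iEC replicate 1, 2 or 3 or lung iEC replicate 1 or 2 (log2 change 0.98 to 1.27, adjusted p = 0.051 to 0.0851). Copg2 on the opposite strand shares 912 exon bases with Mest, and its group means of 38.6 to 55.3 CPM varied far less than those of Mest. Copg2 was itself called higher than in fibroblasts of the same organ. Its log2 changes were 0.32 in lung iECs, 0.41 in lung ECs, 0.40 in heart iECs and 0.39 in heart ECs. The strand setting of the counting is not given, and the part of Copg2 reads in the Mest values was not tested.

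Peg3 encodes a large zinc-finger protein that in mouse acts on fetal growth and maternal behaviour. It was highest in heart iECs. The gene (ENSMUSG00000002265) lies on chromosome 7, 6703892 to 6730431, minus strand. It had 88.9, 99.1 and 67.7 CPM in lung iECs and 160.4, 155 and 177 CPM in heart iECs. Lung ECs had 57.1, 53.5 and 75.6 CPM and heart ECs had 20.4, 20.9 and 18.2 CPM, and fibroblasts had 40.3, 89.3 and 80.8 CPM in lung and 33.2, 24.6 and 28.4 CPM in heart. Heart iEC libraries lay above all others and heart EC libraries below all others, while the 3 lung groups overlapped. Peg3 rose 5.71-fold in heart iECs against heart fibroblasts (log2 change 2.51 ± 0.25, edgeR adjusted p = 8.04e-07) and stood 8.27-fold above heart ECs (log2 change 3.05 ± 0.26, edgeR adjusted p = 1.75e-07). In lung the corresponding changes were 0.28 ± 0.23 (edgeR adjusted p = 0.345) and 0.46 ± 0.23 (edgeR adjusted p = 0.127), and neither passed the test. Lung stood above heart in ECs (log2 change 1.65 ± 0.25, edgeR adjusted p = 6.48e-05) and in fibroblasts (log2 change 1.29 ± 0.24, edgeR adjusted p = 0.000468), but below it in iECs (log2 change -0.94 ± 0.23, edgeR adjusted p = 0.00513). 

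Zim1, a maternally expressed zinc-finger gene 7.442 kb from Peg3 on the same strand, moved like Peg3 in some comparisons and unlike it in others. It had 3.75, 4.77 and 3.14 CPM in lung iECs, 1.73, 1.75 and 2.202 CPM in heart iECs and 0.876, 0.938 and 3.04 CPM in lung ECs, against 4.53, 9.25 and 8.67 CPM in lung fibroblasts. Heart ECs held 1 count over the group and heart fibroblasts held 6 counts. Zim1 rose in heart iECs against heart fibroblasts (log2 change 4.03 ± 0.63, edgeR adjusted p = 2.87e-05) and was higher in lung fibroblasts than in heart fibroblasts (log2 change 6.02 ± 0.58, edgeR adjusted p = 1.08e-07). Lung ECs were lower than lung fibroblasts by a log2 change of -2.20 ± 0.40 (edgeR adjusted p = 0.000115), or -3.04 without lung EC replicate 3. Unlike Peg3, Zim1 fell in lung iECs against lung fibroblasts (log2 change -0.95 ± 0.37, edgeR adjusted p = 0.0424) and was higher in lung iECs than in heart iECs (log2 change 1.04 ± 0.39, edgeR adjusted p = 0.0459). Both calls lay near the threshold. The first ended when any 1 of 8 libraries was left out (log2 change -0.95 to -0.77, edgeR adjusted p = 0.0507 to 0.148). The second ended when any 1 of 13 libraries was left out (log2 change 0.86 to 1.16, edgeR adjusted p = 0.0518 to 0.148).

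Ndn encodes necdin, a protein of the MAGE family best known from neurons, where it restrains growth. It was the most even of the 8 genes, with group means from 43.0 to 74.5 CPM. The gene (ENSMUSG00000033585) lies on chromosome 7, 62346569 to 62350262, plus strand. It had 56.4, 63.1 and 62.3 CPM in lung iECs and 76.3, 66.3 and 71.1 CPM in heart iECs. Lung ECs had 37.5, 40.9 and 50.7 CPM and heart ECs had 66.5, 77.1 and 79.7 CPM, and fibroblasts had 76.8, 60.2 and 63.6 CPM in lung and 65.6, 64.3 and 64.5 CPM in heart. The lung EC libraries lay below all others. Ndn was lower in lung ECs than in lung fibroblasts (log2 change -0.63 ± 0.11, edgeR adjusted p = 6.94e-05) and than in heart ECs (log2 change -0.79 ± 0.11, edgeR adjusted p = 8.69e-06), and higher in lung iECs than in lung ECs (log2 change 0.49 ± 0.11, edgeR adjusted p = 0.00118). The lung ECs, in which Grb10, Cdkn1c and Ndn were all lower than in lung fibroblasts, also held 5 of 5 macrophage markers above lung fibroblasts and 5 of 6 fibroblast markers below them. Lung iECs also held 5 of 5 macrophage markers above lung fibroblasts and 6 of 6 fibroblast markers below them, but in other amounts. Macrophage sums were 6801 to 8914 CPM in lung ECs and 2043 to 3408 CPM in lung iECs. Fibroblast sums were 5490 to 6706 CPM in lung ECs and 10990 to 14750 CPM in lung iECs. The 5 epithelial markers (Epcam, Cdh1, Krt8, Krt18, Sftpc) summed to 194.1 to 229.4 CPM in lung ECs. They summed to 2.99 to 4.34 CPM in lung iECs and 12.6 to 19.5 CPM in lung fibroblasts. In lung iECs Grb10 (-0.16 ± 0.12), Cdkn1c (-0.01 ± 0.31) and Ndn (-0.14 ± 0.11) were not called. The part of these markers' cells in the 3 lung EC differences was not tested.

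**Figure D1:**
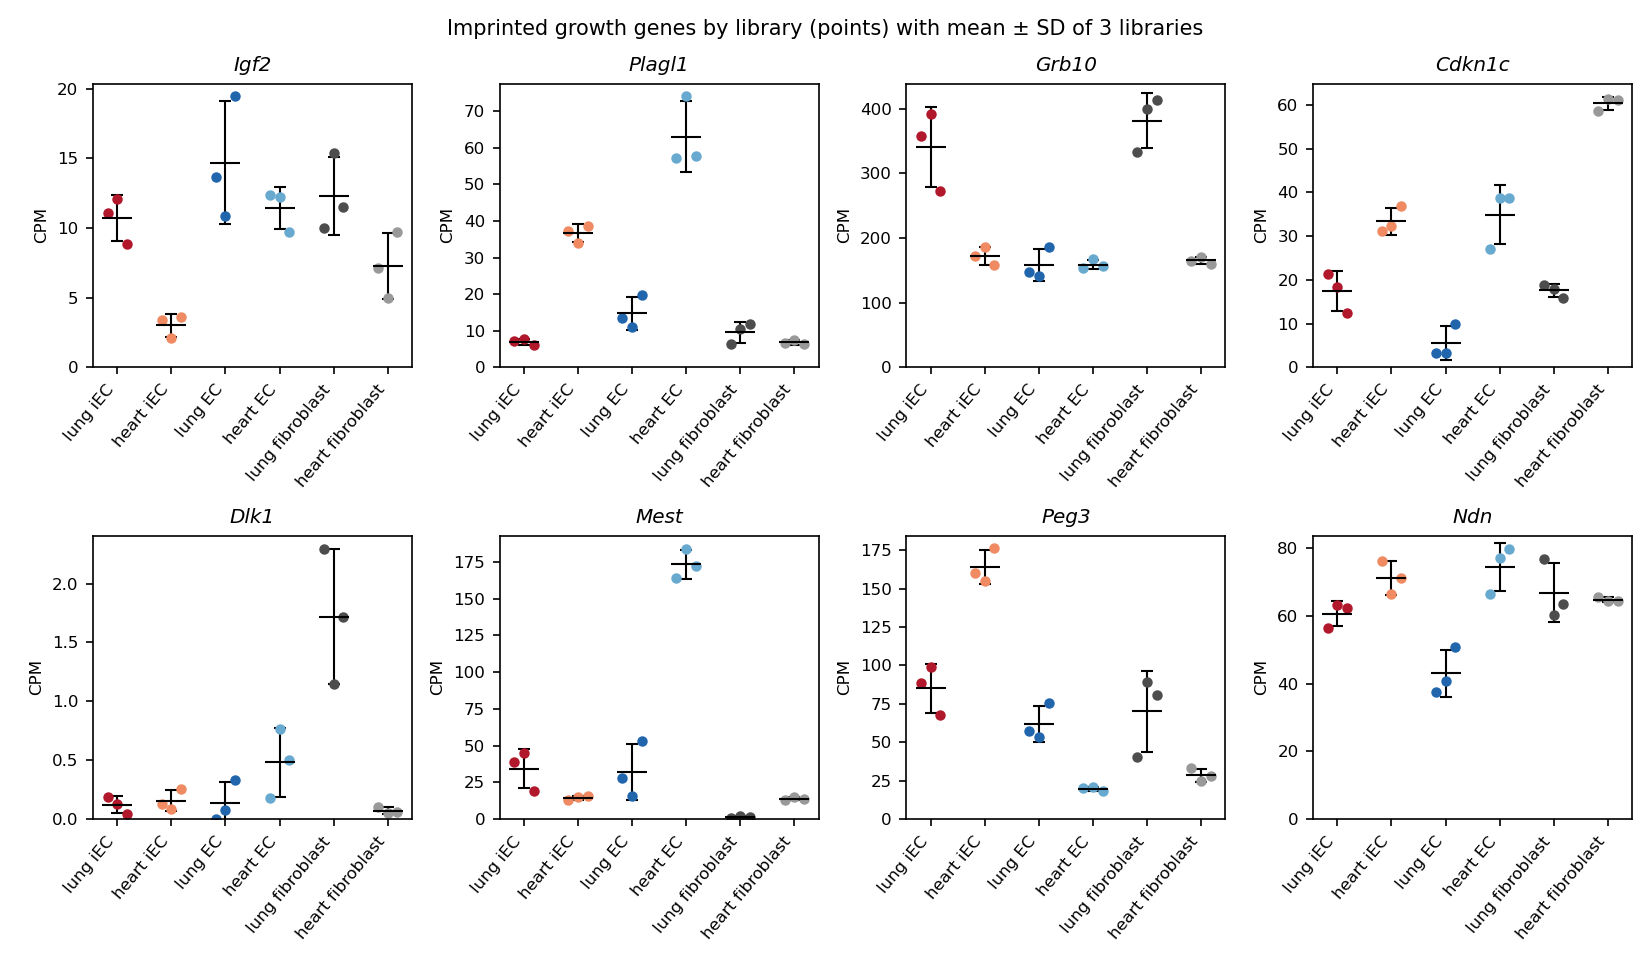
CPM of the 8 genes (y axis, linear, from 0) in the 6 groups (x axis), with 1 point per library and a bar for the mean ± SD of 3 libraries. Peg3 peaks in heart iECs, Mest and Plagl1 in heart ECs, Dlk1 in lung fibroblasts and Cdkn1c in heart fibroblasts, while Ndn stays between 37.5 and 79.7 CPM.

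Levels of different genes were compared per kilobase of exon. Grb10 averaged 37.5 ± 6.78 CPM per kb in lung iECs and 42.0 ± 4.73 in lung fibroblasts, and Mest reached 43.9 ± 2.51 CPM per kb in heart ECs (SD, n = 3 each), so these were the most abundant transcripts of the 8 in those groups. Cdkn1c led in heart fibroblasts with 29.6 ± 0.752 CPM per kb. Igf2 reached at most 2.57 ± 0.768 CPM per kb, in lung ECs, and Dlk1 at most 0.304 ± 0.101, in lung fibroblasts.

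Between iECs and the fibroblasts of their organ, the members moved differently in heart and lung. In heart, Peg3 and Plagl1 rose and Igf2 and Cdkn1c fell, so 4 of 8 members were called, against 50.7% of all genes tested. In lung, Mest rose and Dlk1 was lower, so 2 of 8 were called, against 50.6% of all genes, or 1 of 7 without Dlk1, whose difference from lung fibroblasts the filter had set. The share called was thus near the background in heart and no higher than it in lung. No member was called in the same direction in both organs. The change itself differed between lung and heart for 5 of 8 members, against 25.2% of all genes: Mest (difference of log2 changes, lung minus heart, 4.47 ± 0.64) and Igf2 (1.06 ± 0.37) changed upward in lung relative to heart, and Plagl1 (-2.88 ± 0.31) and Peg3 (-2.23 ± 0.34) downward. The edgeR adjusted p were 0.000186, 0.0462, 3.60e-06 and 0.000194 in that order. The fifth was Dlk1, at -4.79 ± 1.24, given as a description, and without it 4 of 7 were called. The Igf2 difference ended with no filter on low counts (1.11, adjusted p = 0.0646) and when 1 of 12 libraries was left out, namely any of heart EC replicates 1, 2 and 3, heart fibroblast replicates 1 and 3, heart iEC replicates 1 and 2, lung EC replicate 1, lung fibroblast replicates 1 and 3 and lung iEC replicates 1 and 2 (adjusted p = 0.0534 to 0.139).

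Native ECs differed from fibroblasts of their organ in 5 of 8 members in heart, against 47.4% of all genes, and in 6 of 8 in lung, against 58.1%. Mest and Plagl1 were higher in ECs and Cdkn1c lower in both organs, while Dlk1 was higher in heart ECs and lower in lung ECs. Without Dlk1 the counts were 4 of 7 in heart and 5 of 7 in lung. The heart count over all 8 was 2 without heart EC replicate 2 or heart fibroblast replicate 2, and 3 without heart EC replicate 1, heart fibroblast replicate 1 or 3 or heart iEC replicate 1, as the Igf2, Cdkn1c and Dlk1 calls lay near the threshold. The difference between organs was called for 4 of 8 members, against 34.5% of all genes. It was lower in lung for Plagl1 (-2.57 ± 0.30, edgeR adjusted p = 4.11e-06), Grb10 (-1.21 ± 0.17, 2.65e-05) and Ndn (-0.83 ± 0.15, 0.00032). The fourth was Dlk1, at -6.13 ± 1.12, or -7.71 without lung EC replicate 3, given as a description since it rests on lung fibroblasts, and without Dlk1 3 of 7 were called.

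Against native ECs of their organ, heart iECs were higher in Peg3 and lower in Mest, Igf2 and Plagl1, which made 4 of 8 members called, against 48.9% of all genes. Lung iECs were higher in Cdkn1c, Grb10 and Ndn and lower in Plagl1, again 4 of 8, against 45.2% of all genes. Both counts lay near the background. Comparisons that share a group, such as those of iECs and of ECs against the same fibroblasts, share its libraries and are not independent. The change differed between organs for 6 of 8 members, against 26.0% of all genes. It was higher in lung for Mest (3.65 ± 0.53, edgeR adjusted p = 0.0002), Cdkn1c (1.71 ± 0.45, 0.0115), Igf2 (1.47 ± 0.37, 0.00679), Grb10 (0.99 ± 0.17, 0.000356) and Ndn (0.56 ± 0.15, 0.0117), and lower for Peg3 (-2.59 ± 0.34, 5.48e-05). Without lung EC replicate 3 the Cdkn1c difference was 2.46. The count of 6 held without any 1 of the 18 libraries. It is a description, since the members were chosen with earlier results of these data known.

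**Figure D2:**
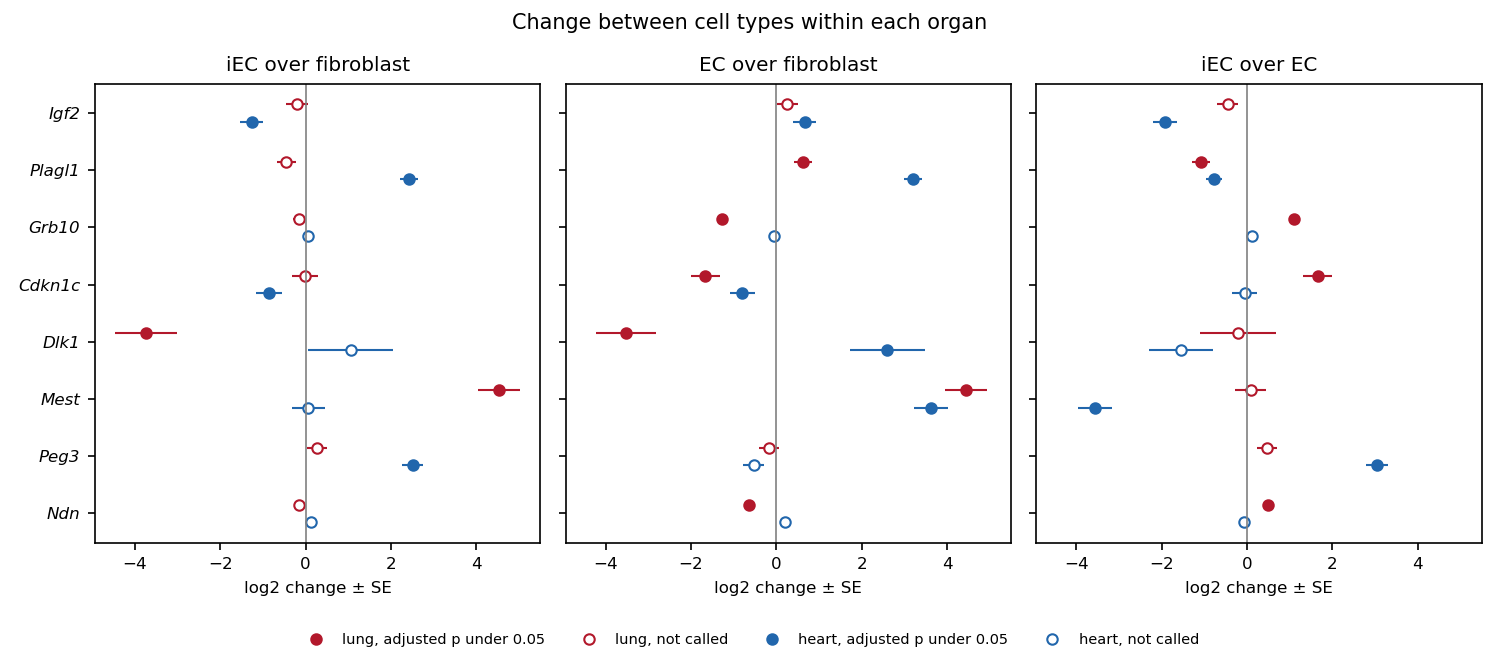
Log2 change ± SE (x axis) of the 8 genes (rows) for iEC over fibroblast, EC over fibroblast and iEC over EC, with lung in red and heart in blue and filled points at an edgeR adjusted p under 0.05. Peg3 and Plagl1 rose in heart iECs by 2.51 and 2.42 while their lung points lie at 0.28 and -0.45, and Mest rose by 4.53 in lung iECs with its heart point at 0.06.

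Lung and heart differed in 6 of 8 members among iECs, against 37.7% of all genes, in 5 of 8 among ECs, against 47.9%, and in 6 of 8 among fibroblasts, against 48.5%, or 5 of 7 fibroblast differences without Dlk1. The direction was not constant over cell types. Mest was higher in lung iECs than in heart iECs but lower in lung ECs and lung fibroblasts than in those of heart, and Peg3 did the opposite. Cdkn1c was lower in lung in all 3 cell types. Ndn was called in ECs, and in iECs its difference of -0.23 ± 0.11 (edgeR adjusted p = 0.101) passed the test only in a fit of those groups alone (-0.21, adjusted p = 0.0459).

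**Figure D3:**
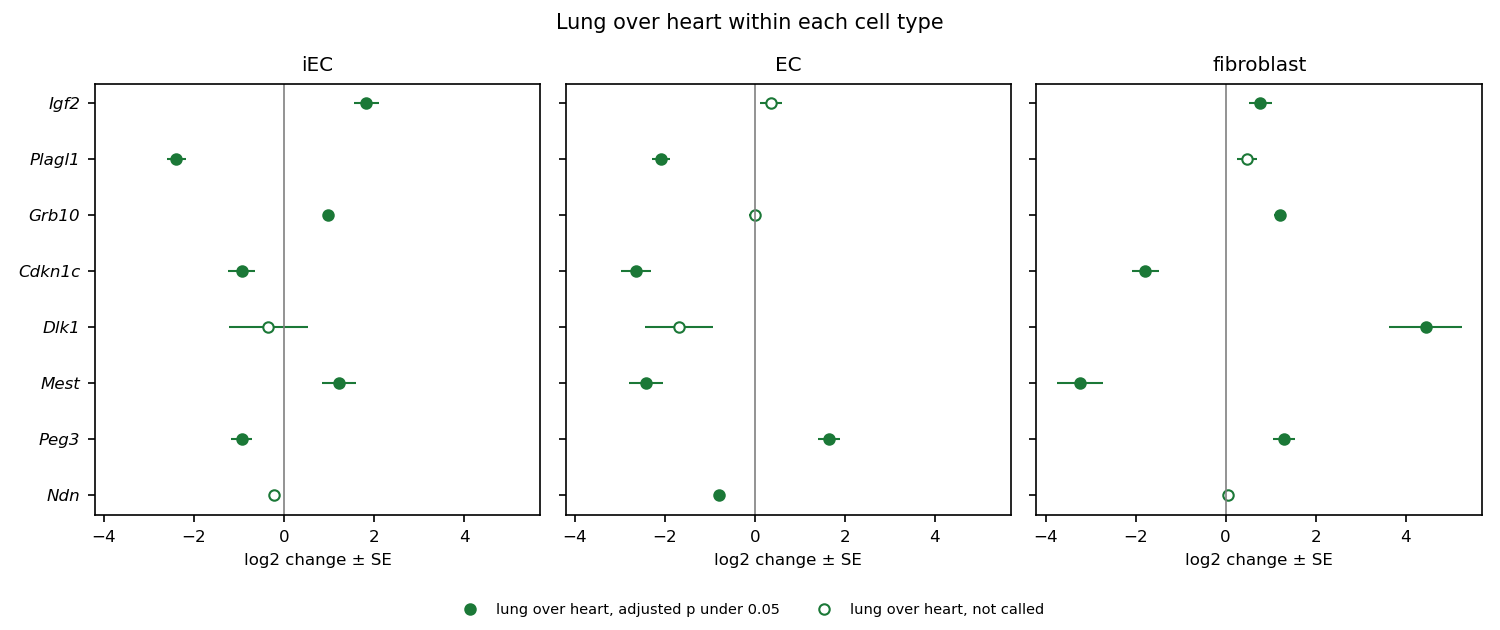
Log2 change ± SE of lung over heart (x axis) for the 8 genes (rows) within iECs, ECs and fibroblasts, with filled points at an edgeR adjusted p under 0.05. Mest is positive in iECs (1.23) and negative in ECs and fibroblasts (-2.42 and -3.24), and Peg3 is negative in iECs (-0.94) and positive in ECs and fibroblasts (1.65 and 1.29).

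Other imprinted genes did not move as 1 block. Of 23 other paternally expressed genes listed, 16 were tested. In heart iECs against heart fibroblasts 6 of them rose and 4 fell, with a median log2 change of -0.20 beside 0.02 over all genes tested. In lung iECs against lung fibroblasts 5 rose and 3 fell, with a median of 0.17 beside 0 over all genes. Of 21 other maternally expressed genes listed, 15 were tested, and 4 rose and 4 fell in heart iECs and 3 rose and 3 fell in lung iECs. Set against native ECs, heart iECs had 6 of the paternally expressed genes at a higher level and 3 at a lower one, and lung iECs had 7 and 2. These counts stand beside 50.7% of all genes called in heart and 50.6% in lung against fibroblasts, and 48.9% in heart and 45.2% in lung against ECs.

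Nnat and Peg12 were higher in iECs than in either other cell type of the same organ. Nnat, which encodes the small membrane protein neuronatin, had 12.95, 11.2 and 14.6 CPM in lung iECs and 8.74, 6.84 and 8.81 CPM in heart iECs. It had 5.11, 5.95 and 4.42 CPM in lung ECs and 1.84, 1.54 and 1.78 CPM in heart ECs, and 1.38, 1.01 and 0.858 CPM in lung fibroblasts and 0.4699, 0.421 and 0.605 CPM in heart fibroblasts. It rose in iECs against fibroblasts in lung (log2 change 3.59 ± 0.20, edgeR adjusted p = 6.79e-11) and in heart (log2 change 4.02 ± 0.23, edgeR adjusted p = 7.71e-11). Peg12, which lies 111.609 kb from Ndn, rose in lung iECs to 13.8 ± 2.35 CPM, against 3.62 ± 0.807 CPM in lung fibroblasts (log2 change 1.93 ± 0.17, edgeR adjusted p = 3.21e-08). In heart it stood at 10.5 ± 1.499 CPM in iECs, against 2.83 ± 0.276 CPM in fibroblasts (log2 change 1.89 ± 0.18, edgeR adjusted p = 5.89e-08; SD, n = 3 each). Ndn, its neighbour, showed -0.14 ± 0.11 in lung and 0.14 ± 0.11 in heart in the same comparisons, neither past the test.

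Dio3, which encodes the deiodinase that inactivates thyroid hormone, lies in the same imprinted domain as Dlk1, at a distance of 815.732 kb. Like Dlk1 it was found almost only in lung fibroblasts. It had 7, 18 and 2 counts in lung iECs and 2, 0 and 2 counts in lung ECs, against 482, 488 and 675 counts in lung fibroblasts. Heart fibroblasts had 9, 9 and 10 counts, and heart iECs and heart ECs held 3 and 4 counts over each group. It too passed the filter on low counts through lung fibroblasts alone, so its log2 changes are a description, at -6.02 ± 0.43 in lung iECs against lung fibroblasts, or -6.94 without lung iEC replicate 2, and 5.71 ± 0.43 in lung fibroblasts against heart fibroblasts. Peg10, a gene derived from a retroelement, was highest in heart fibroblasts, with 17.3 ± 2.12 CPM in heart iECs and 17.2 ± 1.81 CPM in heart ECs, against 78.1 ± 11.2 CPM in heart fibroblasts (SD, n = 3 each). It fell in heart iECs (log2 change -2.18 ± 0.22, edgeR adjusted p = 4.20e-07).

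Around Igf2 and Grb10, genes of IGF and insulin signalling changed in both directions. Of 16 listed, 15 were tested, and 4 rose and 8 fell in heart iECs against fibroblasts, while 7 rose and 6 fell in lung iECs, beside 50.7% of all genes called in heart and 50.6% in lung. Irs1, an adaptor that passes on the signal of the insulin and IGF1 receptors, had 57.95, 65.4 and 57.99 CPM in lung iECs and 133, 109 and 121 CPM in heart iECs. Its fibroblast values were 3.95, 7.33 and 10.5 CPM in lung and 14.3, 16.1 and 15.97 CPM in heart. It rose in lung (log2 change 3.04 ± 0.23, edgeR adjusted p = 1.62e-08) and in heart (log2 change 2.97 ± 0.22, edgeR adjusted p = 1.17e-08). Its relative Irs2 rose by 0.75 ± 0.13 in lung (edgeR adjusted p = 7.06e-05) and by 1.19 ± 0.13 in heart (edgeR adjusted p = 3.40e-07). Igfbp3, a secreted protein that binds IGFs, averaged 1653 ± 227 CPM in lung iECs and 1526 ± 90.6 CPM in heart iECs, against 428 ± 33.99 CPM in lung fibroblasts and 252 ± 18.1 CPM in heart fibroblasts (SD, n = 3 each). Its log2 changes were 1.95 ± 0.12 in lung and 2.60 ± 0.12 in heart (edgeR adjusted p = 1.93e-10 and 4.43e-12). The binding proteins Igfbp4 and Igfbp6 fell in iECs of both organs, with log2 changes for Igfbp4 of -3.68 ± 0.16 in lung and -1.88 ± 0.14 in heart (edgeR adjusted p = 2.49e-12 and 5.75e-09), and for Igfbp6 of -3.23 ± 0.29 in lung and -2.75 ± 0.29 in heart (edgeR adjusted p = 3.65e-07 and 2.14e-06). The receptor Igf1r rose in lung iECs (log2 change 0.46 ± 0.11, edgeR adjusted p = 0.00191) and heart iECs (log2 change 0.41 ± 0.11, edgeR adjusted p = 0.00418), and Igf2r rose in lung iECs (log2 change 0.86 ± 0.11, edgeR adjusted p = 5.01e-06).

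**Figure D4:**
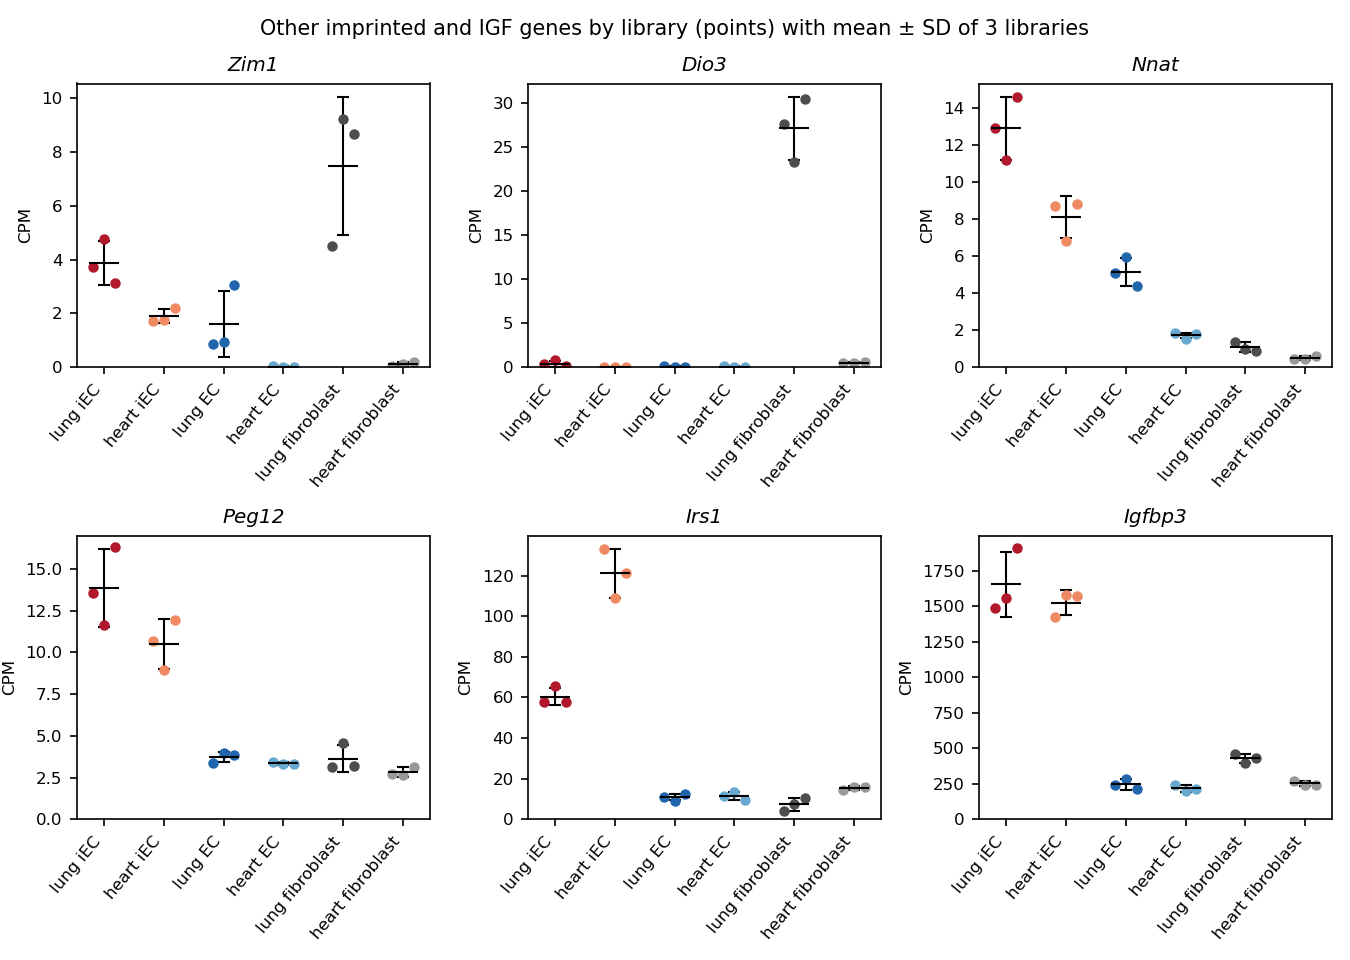
CPM (y axis, linear, from 0) of 6 other imprinted or IGF signalling genes in the 6 groups (x axis), with 1 point per library and bars for the mean ± SD of 3 libraries. Nnat, Peg12, Irs1 and Igfbp3 are highest in both iEC groups. Dio3 is found in lung fibroblasts at 23.4 to 30.5 CPM, and Zim1 is nearly absent from heart ECs and heart fibroblasts.

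Genes with the profile most like that of a member were sought over the 18 libraries by the root mean square difference of log2 CPM after centring, among genes of at least 5 CPM on average. For Igf2 they were Trf (0.371), Fam111a (0.425), Sema4b (0.429), Dab2 (0.436) and Nqo1 (0.437), where the median gene of 10640 lay at 0.887. For Dlk1 they were Prickle1 (0.613), Cadm4 (0.713), Nid2 (0.756), Nxph4 (0.756) and P4ha3 (0.771), where the median lay at 1.35, and its log2 values depend on the prior count of 2 because its counts are low. Among the members themselves, Grb10 and Ndn were closest (0.594) and Dlk1 and Mest farthest (2.89). The measure is not scaled for how far a gene varies, so a small value need not mean a shared pattern. The highest group mean was 1.73 times the lowest for Ndn and 2.41 times for Grb10. It was 23.7 times the lowest for Dlk1 and 119 times for Mest.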

How the data were processed

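RNA was measured in 18 libraries in 6 groups of 3, grouped by the tissue, cell type and time in the labels. The authors deposited 1 table of expected counts, estimated per gene and written as integers. The submitters' processing notes name Salmon, DESeq2 and mm10, with no version, and whether the authors' counting used strand is not given in the sources used here. Of the 35727 gene IDs, 35422 had a symbol in GENCODE M21 on GRCm38, from which positions and exon overlaps were also taken.

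Counts were analysed with R 4.3.3 and edgeR 4.0.16: filterByExpr on the 6 groups (14864 genes, 99.97% of counts), TMM scaling, and a robust quasi-likelihood fit over all 18 libraries with 1 coefficient per group (12 residual degrees of freedom, common biological coefficient of variation 0.135). Adjusted p-values are Benjamini-Hochberg values over all genes tested in a comparison. Each SE was derived from the log2 change and its F statistic (size of the change over the root of F). CPM are counts over the TMM-scaled total of the genes tested.

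The members and gene lists were chosen with earlier results of these data known. All members were named in every comparison; from each list, called genes with the largest changes and at least 5 CPM in the higher group could be named, and other list members given as values. Other settings tried were no filter on low counts, RLE scaling, DESeq2 1.42.0, at least 5 CPM in 3 libraries, only the groups compared, a replicate block, and each library left out in turn. For list genes they were added after the data were seen.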

Additional observations from a re-analysis of the deposited data

Results flagged for a closer look

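Each result here is a difference between lung and heart in the size of a change between cell types, tested as an interaction in edgeR over 14864 genes and given as a log2 difference, lung minus heart. For iECs against fibroblasts, the change in lung exceeded that in heart for Mest (4.47) and Igf2 (1.06), and lay below it for Dlk1 (-4.79), Plagl1 (-2.88) and Peg3 (-2.23). For ECs against fibroblasts, it lay below that in heart for Dlk1 (-6.13), Plagl1 (-2.57), Grb10 (-1.21) and Ndn (-0.83). For iECs against ECs, it exceeded that in heart for Mest (3.65), Cdkn1c (1.71), Igf2 (1.47), Grb10 (0.99) and Ndn (0.56), and lay below it for Peg3 (-2.59). The Igf2 difference for iECs against fibroblasts had an adjusted p of 0.0462 and was lost under several alternatives. With Dlk1 left aside, the other differences had adjusted p of 0.0117 or less. Dlk1 passed the filter on low counts through lung fibroblasts alone, so its differences are a description. Every group enters more than 1 of these kinds of difference, so they are not independent of each other.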

How the results depend on the processing

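The 96 log2 changes of the 8 members (57 called) were recomputed under 24 alternatives, 18 of which leave out 1 library (only 84 of the 96 could be recomputed at 5 CPM in 3 libraries and 89 in fits of only the groups compared, as Dlk1 left the test), and 28 of the 96 changed sign or crossed the threshold under at least 1 of them. The cause was not tested. Of the counts of members called, 5 in heart ECs against heart fibroblasts became 3 with no filter on low counts and 3 with a replicate block, and ranged from 2 to 6 when 1 library was left out. In lung iECs against lung fibroblasts the count of 2 became 1 when at least 5 CPM in 3 libraries was required, because Dlk1 was then not tested. Direction turned only for differences that were not called. For Cdkn1c in lung iECs against lung fibroblasts it was 0.0100 with DESeq2, 0.0117 with RLE scaling, 0.0251 with no filter and 0.00012 with the replicate block. For Grb10 in lung ECs against heart ECs it was 0.00456 with DESeq2, 0.00427 with RLE scaling, 0.0222 with no filter, 0.00268 at 5 CPM and 0.000479 with the replicate block. Leaving out 1 library gave ranges that cross 0 for Cdkn1c in lung iECs against lung fibroblasts (-0.19 to 0.18) and heart iECs against heart ECs (-0.22 to 0.0246), Grb10 in lung ECs against heart ECs (-0.14 to 0.0710), Dlk1 in lung iECs against lung ECs (-0.73 to 1.37) and against heart iECs (-0.77 to 0.18), Mest in lung iECs against lung ECs (-0.25 to 0.66), Igf2 (-0.0055 to 0.45) and Peg3 (-0.46 to 0.0304) in lung ECs against lung fibroblasts, and Ndn in lung fibroblasts against heart fibroblasts (-0.0642 to 0.12). The replicate numbers gave no sign of pairing, as 1 of 45 correlations between libraries of the same number in different groups was over 0.1 (range -0.398 to 0.117). Libraries of different numbers were not compared, so shared animals or batches are not excluded. The replicate block ended 3 calls, Igf2 (0.68, adjusted p = 0.0515) and Cdkn1c (-0.80, 0.0536) in heart ECs against heart fibroblasts and the Igf2 difference between organs for iECs against fibroblasts (1.06, 0.0628). A fit of only the groups compared added 4 calls, Peg3 (-0.53, adjusted p = 0.000591) and Ndn (0.20, 0.0178) in heart ECs against heart fibroblasts, Ndn in lung iECs against heart iECs (-0.21, 0.0459) and the Cdkn1c difference between organs for iECs against fibroblasts (0.83, 0.00947). Dlk1, with 0 to 14 counts per library outside lung fibroblasts, is limited by depth.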

Other observations

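Of 14 factors that set, read or keep DNA methylation at imprinted genes, 13 were tested. In heart iECs against heart fibroblasts 9 rose and 0 fell, with a median log2 change of 0.39 beside 0.02 over all genes, and in lung iECs against lung fibroblasts 5 rose and 0 fell, with a median of 0.15. Over all genes 50.7% were called in heart and 50.6% in lung, so the share called in lung lay below that of all genes. Uhrf1, which brings the maintenance methyltransferase to newly copied DNA, averaged 27.1 ± 2.32 CPM in lung iECs and 10.7 ± 0.564 CPM in heart iECs, against 21.02 ± 2.75 CPM in lung fibroblasts and 2.76 ± 0.479 CPM in heart fibroblasts (SD, n = 3 each). It rose in heart iECs (log2 change 1.94 ± 0.13, edgeR adjusted p = 7.62e-10) and in lung iECs (log2 change 0.37 ± 0.11, edgeR adjusted p = 0.00799). The 15 cell cycle genes moved beside it, as 15 rose in heart iECs and 4 rose in lung iECs, and their part was not tested. Zfp57, a zinc-finger protein that binds methylated imprint control regions, rose in heart iECs (log2 change 1.17 ± 0.14, edgeR adjusted p = 8.55e-07), while its change in lung iECs was 0.15 ± 0.13 (edgeR adjusted p = 0.357).

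Of 7 other cyclin-dependent kinase inhibitors read beside Cdkn1c, 1 rose and 2 fell in iECs against fibroblasts in each organ. Over all genes 50.7% were called in heart and 50.6% in lung. Cdkn1b (p27Kip1) fell in lung iECs (log2 change -0.83 ± 0.10, edgeR adjusted p = 1.20e-06) and heart iECs (log2 change -0.38 ± 0.10, edgeR adjusted p = 0.00324), and Cdkn2d (p19Ink4d) fell in lung iECs (log2 change -0.76 ± 0.12, edgeR adjusted p = 4.76e-05) and heart iECs (log2 change -0.41 ± 0.12, edgeR adjusted p = 0.00889). Of 8 genes of the let-7 axis, 6 were tested. Against fibroblasts, 2 rose and 3 fell in heart iECs while 3 rose and 2 fell in lung iECs, beside the same shares of all genes. Hmga2, a chromatin protein of fetal tissues, was higher in lung fibroblasts than in heart fibroblasts (log2 change 2.89 ± 0.19, edgeR adjusted p = 3.48e-09) and, in heart, lower in iECs than in ECs (log2 change -2.23 ± 0.18, edgeR adjusted p = 4.98e-08).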
